A study of Mus musculus with 18 samples.

Results

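The genes described here are 10 that are listed as known splicing targets of TRA2B: Nasp, Chek1, Ktn1, Rabgap1l, Smn1, Anxa6, Homer1, Hipk3, Fancm and Sgo2a. They were chosen by name, and every row of the gene and transcript tables whose Ensembl identifier belongs to these symbols in the GENCODE M21 annotation was taken. That gave 10 of 55536 genes and 98 of 141862 transcripts. All 10 genes passed the filter on low counts, 60 of the 98 transcripts had enough counts to be tested, and 19 of 20 annotated cassette exons (exons that are either kept or skipped between the same neighbours) could be tested.

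The 18 RNA-seq libraries came from CD8+ T cells of spleen and lymph nodes of mice. All carry OT-I, a transgenic T cell receptor for the ovalbumin peptide SIINFEKL. Of these, 8 were of naive cells (day 0), 8 of controls (labelled scrambled) and 2 of cells labelled Tra2bKO, called knockout below. Control and knockout cells were taken 4 days after stimulation with SIINFEKL and costimulation through antibodies to OX40 and 4-1BB. The labels do not give the age or sex of the mice, the sequence used for the knockout, or whether a group's libraries were made from different mice. Each p-value therefore rests on the spread of libraries that may be technical repeats. The comparison of knockout with control asks which of the target genes differ when Tra2b is disrupted, and the comparison of control with naive asks how they differ after stimulation.

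TRA2B is an SR-like protein that binds GAA-rich stretches of RNA, with AGAA as its core site, and mostly promotes the inclusion of the exons it binds. It also controls its own amount through a poison exon, whose inclusion ends the reading frame early. An exon whose length is not a multiple of 3 shifts the reading frame when it is skipped, and transcripts with an early stop codon are substrates of nonsense-mediated decay. In T cells, stimulation starts rapid division, which needs new histones, checkpoint control and chromosome segregation, functions to which Nasp, Chek1, Fancm and Sgo2a belong.

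The libraries held between 68249844 and 93972513 counts each. The Tra2b gene itself stood at a median of 286 CPM (counts scaled to a common library size) in naive libraries, at a median of 484 CPM in controls and at 361 and 370.5 CPM in the knockout libraries. The log2 fold change of knockout against control was -0.34 (SE 0.13, adjusted p = 0.0899 by the quasi-likelihood test of edgeR, Benjamini-Hochberg over all genes), which did not pass the threshold of 0.05. It passed without control 2, the lowest control at 338 CPM (-0.4, adjusted p = 0.00803), with controls 3 to 8 only (-0.37, adjusted p = 0.00901), and after removal of a trend with gene length and GC content (-0.68, adjusted p = 0.00989). In the 10 fits that left out a single library the fold change ran from -0.4 to -0.31, and only the fit without control 2 passed. The gene count includes reads of any edited transcript and is therefore no check of the edit. The 5 CD8 T cell markers exceeded 1 CPM in every group and summed to 4122 to 4975 CPM in naive libraries, 2217 to 2809 CPM in controls and 2521 to 2911 CPM in the knockout. The 2 CD4 T cell markers summed to at most 4.29 CPM in any library. The summed level of 7 myeloid and dendritic markers ran from 892 to 2553 CPM in naive libraries, from 146 to 417 CPM in controls and from 142 to 174 CPM in the knockout libraries. That of 6 B cell markers ran from 23.8 to 65.5, from 6.9 to 13.1 and from 3.9 to 7.23 CPM, with Ebf1 at 0 in the knockout. The myeloid marker Siglech was at 0 in controls and knockout. Erythroid markers summed to 1.31 to 23.4 CPM in naive libraries, to at most 10.6 CPM in controls and to between 7.99 and 78.5 CPM in the knockout libraries, and NK cell markers to 92.7 to 162.5, 13.9 to 65.6 and 61.0 to 61.9 CPM. Every comparison with naive cells carries this difference in other cells, and the part of these cells in the results was not tested. In such bulk libraries, fewer cells of a type and less RNA per cell cannot be told apart.

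The 2 knockout libraries also differed from each other. Over 7556 well-expressed genes, the log2 ratio of knockout 2 to knockout 1 had a median of -0.14 for genes with under 2 kb of exon sequence and of 0.27 for genes with over 7 kb. Among the targets, Homer1 was 3.12-fold, Hipk3 2.41-fold and Fancm 1.84-fold higher in knockout 2, while the 95th percentile of all genes was 1.72-fold. The other 7 targets differed by between 0.916-fold and 1.105-fold. Results for Homer1, Hipk3 and Fancm therefore rest on a pair of knockout libraries that stand apart. After removal of a length and GC trend, knockout against control stood at 0.78 for Hipk3 (adjusted p = 0.0156), 0.02 for Fancm (adjusted p = 0.945) and -0.22 for Homer1 (adjusted p = 0.784) by edgeR, so that the call of Hipk3 and the lack of a call for the other two held.

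In gene level, 2 targets were higher and 2 lower in knockout than in control. Nasp and Ktn1 fell, Chek1 and Hipk3 rose, and 6 of 10 did not pass the test. Of the 18651 genes tested, 14.9% were called (7.62% higher and 7.24% lower). The median log2 fold change was 0.04 for the targets and -0.01 for all genes tested. Without knockout 2 only Nasp was still called, and 651 genes of all tested.

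**Figure D1:**
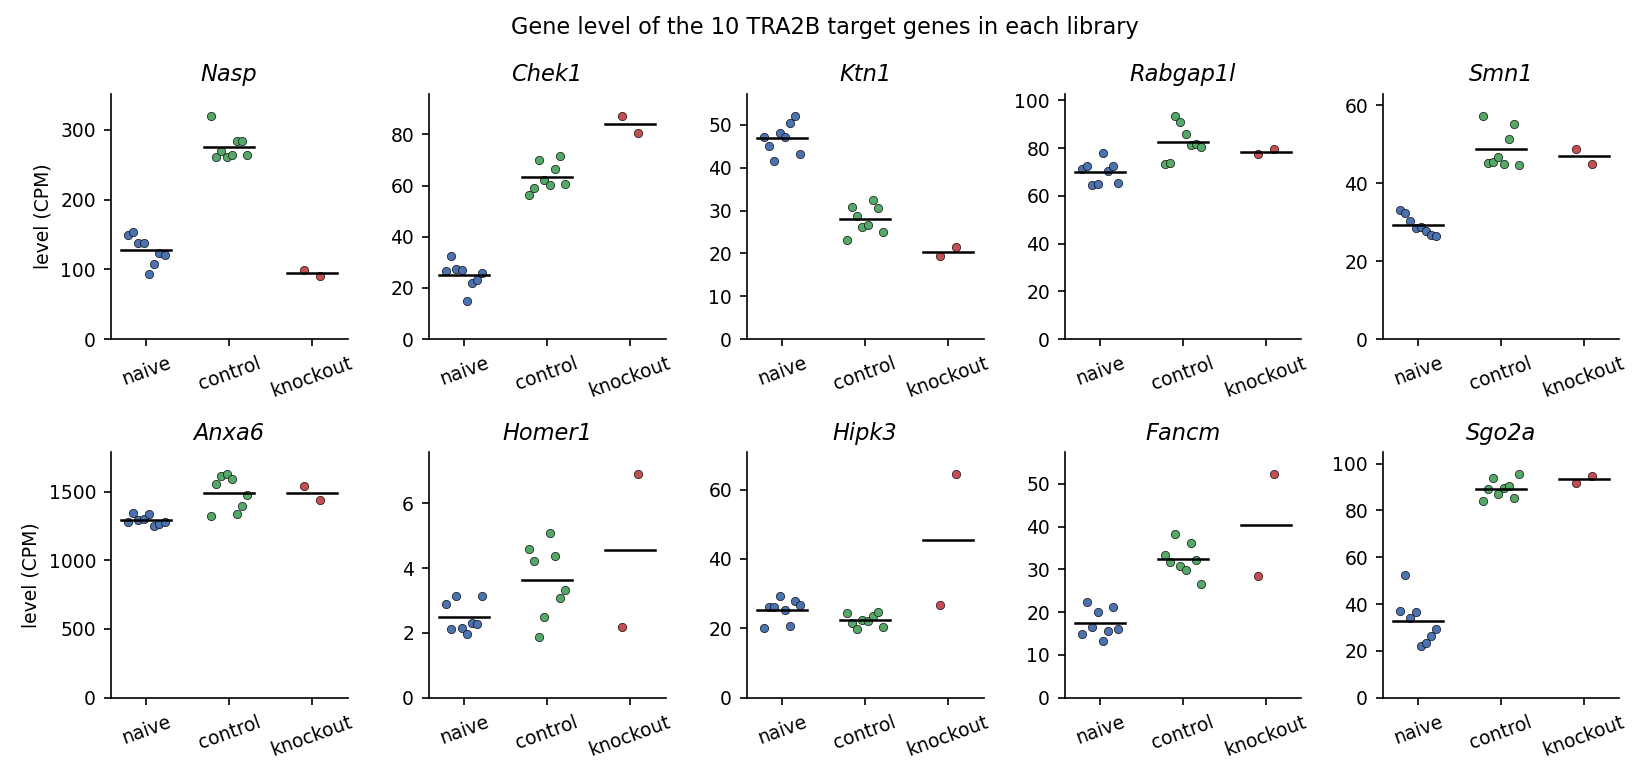
Gene level in CPM (y axis, from 0 in each panel) of the 10 targets in the 8 naive, 8 control and 2 knockout libraries; each point is 1 library and the line is the group mean. The Nasp points of the knockout lie below every control, and the pair of knockout points is far apart for Homer1, Hipk3 and Fancm.

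Nasp encodes a chaperone of histones H3 and H4 and of the linker histone. The gene (ENSMUSG00000028693.15) spans chr4:116601052-116627941 (GRCm38, minus strand). Its level ran from 93.7 CPM through a median of 131 to 154 CPM in naive libraries and from 261 through 267 to 320.2 CPM in controls. In the knockout libraries it stood at 98.7 and 90.5 CPM. Both knockout values lay below every control, and that of knockout 2 also below every naive library. The log2 fold change was -1.54 for knockout against control (SE 0.09, adjusted p = 3.11e-06), a 2.9-fold difference, and 1.11 for control against naive (SE 0.09, adjusted p = 4.46e-09, same edgeR test). These comparisons share the controls. Knockout against naive gave -0.41 (SE 0.16, adjusted p = 0.0593), which did not pass. It passed with all 3 groups in a single fit (adjusted p = 0.0136), after removal of the length and GC trend (adjusted p = 0.0397), with total counts only (adjusted p = 0.0209), with the replicate block (-0.69, adjusted p = 0.0388) and without naive 5 (adjusted p = 0.0114) or naive 6 (adjusted p = 0.0335). Those were 2 of 10 fits that left out a single library. The rest did not pass, and the fold change over the 10 ran from -0.5 to -0.33. Leaving out single libraries kept the fold change of knockout against control between -1.62 and -1.47, with adjusted p-values up to 0.000171, whereas with controls 1 and 2 only the call ended (adjusted p = 0.0567).

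The exon of Nasp known to depend on TRA2B is the T exon, a long exon that is included in the form typical of testis. In the annotation it is exon 7 of Nasp-201, has 975 bases, lies at chr4:116610403-116611377 on the minus strand (GRCm38) and is wholly coding. Its length is a multiple of 3. It holds 23 matches to AGAA, against a median of 8 in the 482 annotated internal exons of similar length (within 10%), of which 2.49% hold as many or more. A second Nasp cassette exon of 81 bases, at chr4:116614330-116614410 and also wholly coding, is kept in Nasp-202 and skipped in Nasp-203. It holds 3 matches, a number that 6.94% of exons of its length reach. Nasp-201, Nasp-202 and Nasp-203 have 2520, 2118 and 1461 bases, so they also differ outside these exons. Inclusion is estimated from whole transcripts and takes in those other differences. Bases 8 to 307 of the T exon (chr4:116611071-116611370, the stretch of 300 bases with the most matches) and the 81-base exon are shown because inclusion of both was measured below. They are read 5′ to 3′ from the GENCODE M21 transcripts, with AGAA in capitals and overlapping matches joined. On the opposite strand AGAA (read here as TTCT) matches 3 times in the T exon and 2 times in the 81-base exon.
Nasp T exon, bases 8 to 307: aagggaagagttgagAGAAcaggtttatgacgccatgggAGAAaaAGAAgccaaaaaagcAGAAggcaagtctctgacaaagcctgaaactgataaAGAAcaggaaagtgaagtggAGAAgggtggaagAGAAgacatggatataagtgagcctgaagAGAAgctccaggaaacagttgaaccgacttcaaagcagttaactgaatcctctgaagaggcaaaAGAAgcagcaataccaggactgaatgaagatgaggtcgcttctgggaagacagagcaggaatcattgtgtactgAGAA
Nasp 81-base exon: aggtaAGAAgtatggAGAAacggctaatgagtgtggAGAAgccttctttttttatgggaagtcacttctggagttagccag

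Inclusion of the T exon (from counts divided by transcript length) was low in every group. It ran from 2.4% through a median of 4.09% to 8.47% in naive libraries and from 4.22% through 6.83% to 11.4% in controls, and was 2.29 and 2.9% in the knockout libraries. Both knockout values lay below all 8 controls, and that of knockout 1 also below every naive library. The log2 odds differed by -1.47 (SE 0.47), with an adjusted p of 0.163 over 11173 exons (limma on log2 odds), which did not pass. An exact two-sided permutation test of the difference of -4.57 percentage points gave p = 0.0667, and 0.0222 is the smallest p that 2 against 8 libraries allow. The 81-base exon was included in 79.1 to 89.3% in controls and in 66.1 and 72.6% in the knockout libraries, again with no overlap. Its log2 odds differed by -1.2 (SE 2.34, adjusted p = 0.9 by limma), and the exact two-sided permutation p was 0.0222. The naive libraries ran from 60.1 to 100%, where the 100% came from naive 7, in which Nasp-203 had no counts. The limma fit took its spread from all 3 groups, naive 7 included. Its SE for this exon is therefore not that of knockout and control libraries alone.

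Protein-coding transcripts held nearly all Nasp counts, and their share fell in the knockout. It was 98.9 to 99.3% in controls and 97.3 and 96.2% in the knockout libraries, with no overlap (log2 odds difference -1.93, SE 0.29, adjusted p = 0.00296 over 9004 genes, limma). The share was 97.2 to 98.8% in naive libraries and was higher in controls than in naive cells (0.95, SE 0.19, adjusted p = 0.000566). The shares of 3 minor processed transcripts rose against control, namely Nasp-204 (adjusted p = 0.0314), Nasp-205 (adjusted p = 0.00903) and Nasp-208 (adjusted p = 0.0134), all by limma. These were named after their values were seen, since each is under 10% of the gene. The level of Nasp-205 was 0.968 to 2.13 CPM in controls and 1.93 and 2.12 CPM in the knockout libraries, which overlap. That of Nasp-204 also overlapped (0.121 to 0.407 CPM against 0.282 and 0.285 CPM). Nasp-208 lay above every control (0.0651 to 0.336 CPM against 0.398 and 0.384 CPM). All non-coding Nasp transcripts summed to 1.88 to 2.96 CPM in controls and to 2.7 and 3.4 CPM in the knockout libraries, which overlap. Coding transcripts summed to 258 to 317 CPM in controls and to 96.0 and 87.1 CPM in the knockout libraries.

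Chek1 encodes the checkpoint kinase that acts below ATR when DNA replication stalls. The gene (ENSMUSG00000032113.16) spans chr9:36708482-36727065 (GRCm38, minus strand). Its level ran from 14.7 through a median of 26.1 to 32.4 CPM in naive libraries and from 56.5 through 61.5 to 71.5 CPM in controls. It was 87.3 and 80.6 CPM in the knockout libraries, above every control. Chek1 rose in the knockout by 0.41 on the log2 scale (SE 0.09, adjusted p = 0.0108) and in controls against naive by 1.35 (SE 0.12, adjusted p = 1e-08, edgeR in both). The first call ended without knockout 1 (adjusted p = 0.0942) or knockout 2 (adjusted p = 0.0531), with all 3 groups in a single fit (adjusted p = 0.119), and after removal of a length and GC trend (adjusted p = 0.0752).

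Of the 8 annotated Chek1 transcripts 4 are coding, namely Chek1-201, Chek1-202, Chek1-203 and Chek1-205. Chek1-207, annotated as a processed transcript without a reading frame, lacks exactly 1 internal exon of Chek1-201 and has shorter ends. This exon is exon 3 of the 13 exons of Chek1-201, has 224 bases, is wholly coding and is the Chek1 exon known to need TRA2 proteins in human cells. Read from the start codon of Chek1-201, Chek1-207 meets a stop codon in its exon 3 after 28 codons, where Chek1-201 has 476, and 9 exon junctions follow that stop. The exon lies at chr9:36723797-36724020 on the minus strand (GRCm38). It holds 7 matches to AGAA, against a median of 1 in 11079 internal exons of similar length, of which 2.02% hold as many or more and 76.9% hold at least 1. On the opposite strand it holds 2. Its complete sequence follows because its skipping defines Chek1-207, with AGAA in capitals.
Chek1 exon 3: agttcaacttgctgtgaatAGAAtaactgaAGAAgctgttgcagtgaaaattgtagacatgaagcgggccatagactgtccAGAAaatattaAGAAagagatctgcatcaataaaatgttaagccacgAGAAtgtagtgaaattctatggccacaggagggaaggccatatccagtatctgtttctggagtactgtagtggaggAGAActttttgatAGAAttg

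Chek1-207 held 0% of the Chek1 counts in 6 of 8 naive libraries, with 3.24 and 5.31% in the other two. In controls it held from 0 through a median of 2.03 to 8.3%, and in the knockout libraries 26.0 and 67.4%. Both knockout libraries lay far above all 16 others, and differed widely from each other. In CPM, Chek1-207 reached at most 5.94 in controls and stood at 22.7 and 54.4 in the knockout libraries. Inclusion of exon 3 was 87.1 to 100% in controls, 91.2 to 100% in naive libraries, and 62.5 and 21.3% in the knockout libraries.

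The share of Chek1-207 against control had a log2 odds difference of 7.69 (SE 2.91) and an adjusted p of 0.274 over 40088 transcripts (limma), which did not pass, while edgeR's diffSpliceDGE called it (adjusted p = 0.00704). Inclusion of exon 3 differed by -8.02 (SE 3.19, adjusted p = 0.307, limma), which also did not pass. The exact two-sided permutation p was 0.0222 for both, the smallest that this design allows. Against naive libraries the share of Chek1-207 passed (9.75, SE 2.91, adjusted p = 0.0414, limma), but leaving out any of 6 naive libraries or either knockout library ended the call, with adjusted p-values up to 0.268. The share of Chek1-201 was 59.9 to 91.4% in controls and 43.2 and 18.5% in the knockout libraries, with no overlap (adjusted p = 0.0797, limma). It passed when counts were divided by transcript length (adjusted p = 0.0219).

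The share of coding transcripts, which pools all 4 of them, was called. It ran from 89.8 through a median of 95.7 to 98.6% in controls, from 91.1 to 97.4% in naive libraries, and was 71.6 and 30.3% in the knockout libraries. The log2 odds fell by 4.58 against control (SE 0.73, adjusted p = 0.00348) and by 4.13 against naive (SE 0.73, adjusted p = 0.00105, limma in both). Without knockout 2 the difference from control was -3.31 and did not pass (adjusted p = 0.126), nor did it with only these groups in the fit (adjusted p = 0.0675). Coding Chek1 transcripts summed to 55.6 to 68.8 CPM in controls and to 62.4 and 24.4 CPM in the knockout libraries. All other Chek1 transcripts summed to 0.887 to 7.3 CPM in controls and to 24.8 and 56.2 CPM in the knockout. So 1 knockout library had a coding level within the control range and 1 far below it, and both had more of the other transcripts than any control.

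**Figure D2:**
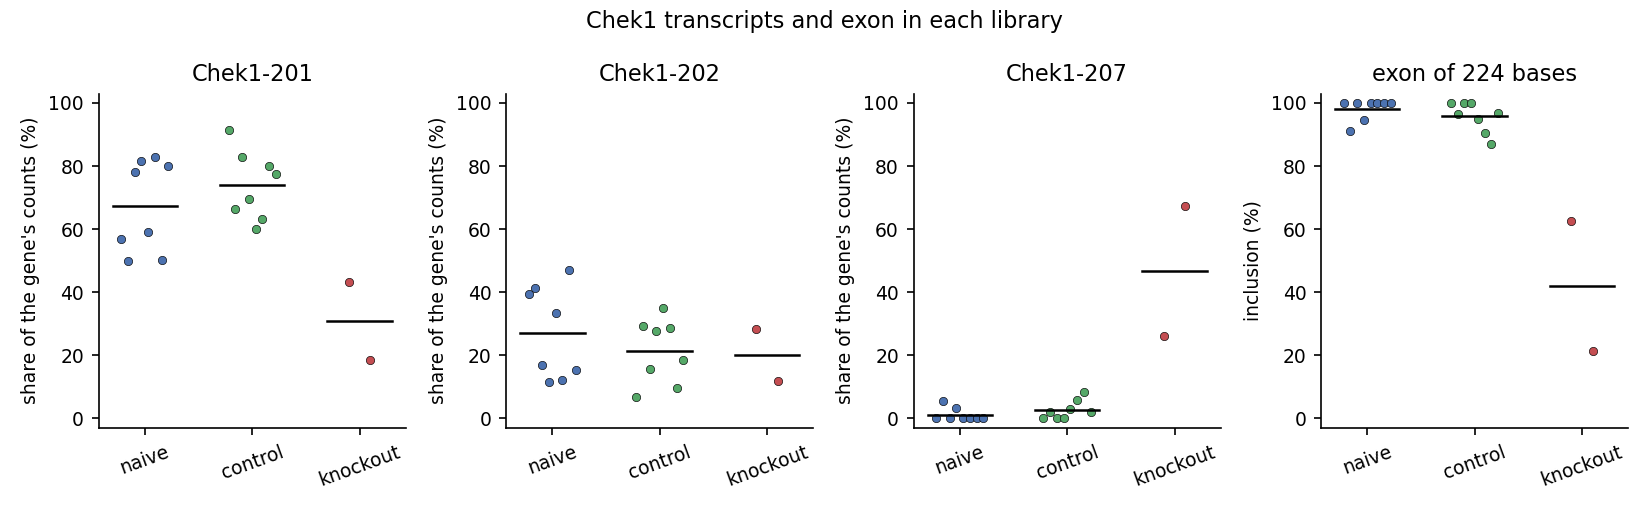
Share of the Chek1 counts held by Chek1-201, Chek1-202 and Chek1-207, and inclusion of the 224-base exon (y axes in percent), in each library of the 3 groups; lines are group means. Chek1-207 stands at 26.0 and 67.4% in the knockout libraries and at no more than 8.3% in the 16 others.

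A second Chek1 exon of 82 bases near the start of the gene, which is not wholly coding, was included in 91.1 to 95.2% in controls and in 83.0 and 78.4% in the knockout libraries. The groups did not overlap (log2 odds difference -1.7, SE 0.44, adjusted p = 0.0758, limma; exact two-sided permutation p = 0.0222), and the test did not pass. Its inclusion was higher in controls than in naive cells, where it ran from 73.4 to 91.6% (1.38, SE 0.28, adjusted p = 0.0034, limma). The exon holds 1 match to AGAA, which equals the median of internal exons of similar length. Of those, 52.44% hold as many or more.

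Fancm and Sgo2a, the other targets with roles in genome maintenance, did not pass between knockout and control in any measure. Fancm encodes a DNA translocase of the Fanconi anaemia pathway. It stood at 26.7 through a median of 31.9 to 38.2 CPM in controls and at 28.5 and 52.3 CPM in the knockout libraries (log2 fold change 0.32, SE 0.17, adjusted p = 0.249, edgeR). Without knockout 1 it passed, at 0.68 (adjusted p = 0.0112), and knockout 1 lay within the control range. Sgo2a encodes shugoshin 2, which protects cohesion at centromeres. It stood at 84.2 through 89.3 to 95.4 CPM in controls and at 91.7 and 94.8 CPM in the knockout libraries (0.07, SE 0.07, adjusted p = 0.547). Both rose from naive to control, Fancm by 0.89 (SE 0.11, adjusted p = 5.48e-07) and Sgo2a by 1.45 (SE 0.14, adjusted p = 3.69e-08, edgeR). Sgo2a ran from 22.1 to 52.2 CPM in naive libraries, so naive and control did not overlap. The split of Fancm between its coding transcript and an annotated decay transcript of similar length was unstable: Fancm-207 held from 0 to 49.4% in controls and from 0 to 51.3% in naive libraries.

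Smn1 encodes the survival motor neuron protein, which assembles spliceosomal snRNPs. Skipping of exon 7, known from human SMN2, is not among the tested events, since no annotated cassette exon of Smn1 describes it. Smn1 ran from 26.6 to 33.0 CPM in naive libraries and from 44.8 to 57.3 CPM in controls, and stood at 48.9 and 45.0 CPM in the knockout libraries, within the control range. It rose from naive to control by 0.74 (SE 0.07, adjusted p = 2.9e-08) and its knockout value was -0.05 against control (SE 0.11, adjusted p = 0.807, edgeR). Its main transcript Smn1-201 held 99.2 to 99.7% of the counts in controls, 97.0 to 99.1% in naive libraries, and 98.2 and 99.0% in the knockout libraries. Both knockout values lay below every control (log2 odds difference -1.35, SE 0.48, adjusted p = 0.235, limma; exact two-sided permutation p = 0.0222), but the test did not pass. Control against naive did (1.81, SE 0.31, adjusted p = 0.000357, limma).

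Ktn1 encodes kinectin, a membrane protein of the endoplasmic reticulum that binds kinesin. It was the only target that passed the edgeR test as lower in controls than in naive cells, and it was lower again in the knockout. Its level ran from 41.5 through a median of 47.3 to 52.1 CPM in naive libraries and from 23.0 through 27.7 to 32.4 CPM in controls, and was 19.4 and 21.5 CPM in the knockout. The 3 groups did not overlap. The log2 fold change was -0.74 for control against naive (SE 0.07, adjusted p = 3.04e-08) and -0.44 for knockout against control (SE 0.13, adjusted p = 0.0396, edgeR). The latter call ended without any of 5 controls (2, 3, 5, 6 or 7) or either knockout library, with adjusted p-values between 0.053 and 0.199, and with no filter on low counts (adjusted p = 0.0523). After removal of the length and GC trend it was -0.79 (adjusted p = 0.00258). That trend took the length of Ktn1 as all annotated exons joined, 12912 bases, while Ktn1-220 has 4436.

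Ktn1 has 26 annotated transcripts and 7 tested cassette exons, none of which passed between any groups. Its exon of 125 bases holds 3 AGAA matches, those of 69, 72 and 84 bases hold 2 each, and the other three hold 1 each. The 125-base exon had a mean inclusion of 3.87% in the knockout and 2.75% in controls. The 69-base exon was included in 48.9 to 84.5% in controls and in 66.0 and 85.5% in the knockout libraries. Ktn1-222, an annotated retained-intron transcript named after its values were seen, held 0.233 to 1.99% of the counts in controls, 0.896 to 2.4% in naive libraries, and 6.81 and 8.28% in the knockout libraries. Its share rose against control (log2 odds difference 3.26, SE 0.61, adjusted p = 0.0107, limma). In CPM it was 0.0711 to 0.458 in controls and 1.32 and 1.78 in the knockout. The coding share of Ktn1 was 94.04 to 99.3% in controls and 90.2 and 87.2% in the knockout libraries, with no overlap but without passing (adjusted p = 0.0827, limma).

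**Figure D3:**
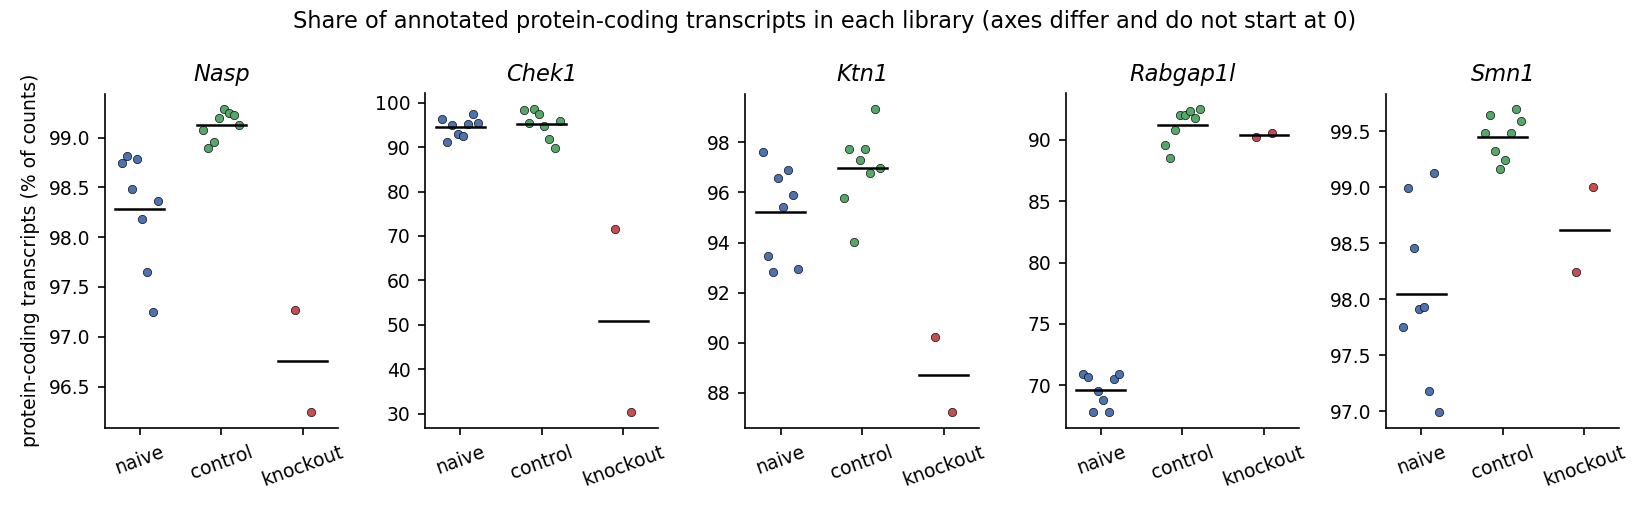
Share of the counts of 5 targets held by annotated protein-coding transcripts (y axes in percent, not from 0 and different between panels) in each library; lines are group means. For Chek1 the knockout libraries stand at 71.6 and 30.3%, below all 16 others, and for Rabgap1l the naive libraries, at 67.8 to 70.9%, lie below all others.

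Rabgap1l encodes a GTPase-activating protein of the TBC family, which acts on Rab proteins in membrane traffic. Its gene level stood at 73.2 through a median of 81.6 to 93.5 CPM in controls and at 77.3 and 79.7 CPM in the knockout libraries (log2 fold change -0.07, SE 0.09, adjusted p = 0.679, edgeR). After removal of a length and GC trend it passed, at -0.61 (adjusted p = 0.00402). That trend took the gene's length as all its annotated exons joined, 23232 bases, while Rabgap1l-201 has 2748. The transcripts within the gene moved while its level did not pass. Rabgap1l-202, the longest coding form, held 1.99 through a median of 3.45 to 5.09% of the counts in controls, and 12.9 and 17.8% in the knockout libraries. It rose against control (log2 odds difference 2.33, SE 0.32, adjusted p = 0.000914, limma) and passed without any single library, with adjusted p-values up to 0.0264. In CPM it ran from 1.62 to 3.76 in controls and was 9.99 and 14.2 in the knockout. Rabgap1l-201, the main form, held 79.7 to 85.9% in controls and 72.1 and 67.7% in the knockout and fell (-1.1, SE 0.23, adjusted p = 0.02, limma). That call was lost without either knockout library (adjusted p = 0.0701 and 0.224) and when counts were divided by transcript length (adjusted p = 0.214). By diffSpliceDGE neither transcript passed (adjusted p = 0.43 for Rabgap1l-202 and 1 for Rabgap1l-201).

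Between control and naive cells, Rabgap1l had the largest difference in coding share among the 10 targets on the log2 odds scale (2.19, SE 0.13, adjusted p = 6.86e-09, limma). In naive libraries Rabgap1l-201 held 50.5 to 60.3% and Rabgap1l-205, an annotated decay transcript, 26.8 through a median of 28.1 to 31.6%. In controls Rabgap1l-205 held 6.91 through 7.64 to 10.6%, and in the knockout libraries 8.4 and 7.59%, within the control range. Rabgap1l-201 rose (1.94, SE 0.14, adjusted p = 2.36e-07) and Rabgap1l-205 fell (-2.17, SE 0.14, adjusted p = 5.29e-08, limma) in controls against naive. The level of Rabgap1l-205 was 18.03 to 22.6 CPM in naive libraries and 5.57 to 8.19 CPM in controls.

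**Figure D4:**
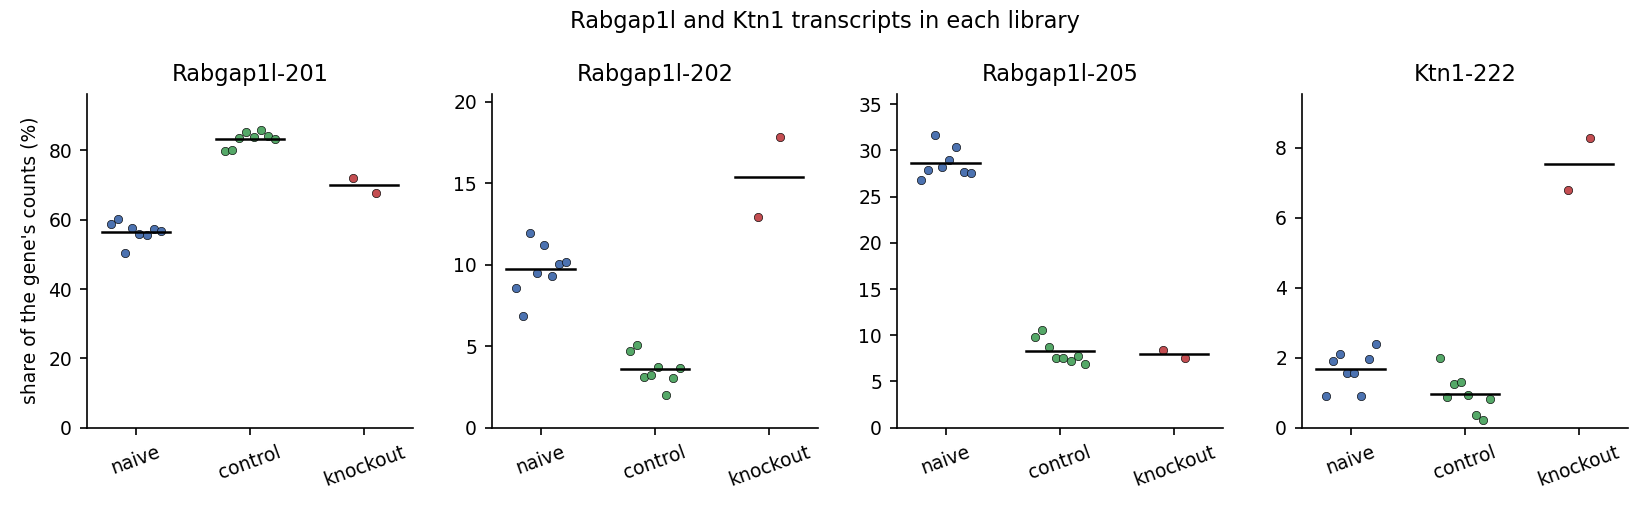
Share of the gene's counts (y axes in percent, from 0) held by Rabgap1l-201, Rabgap1l-202, Rabgap1l-205 and Ktn1-222 in each library; lines are group means. Rabgap1l-202 stands at 12.9 and 17.8% in the knockout libraries against 1.99 to 5.09% in controls, while Rabgap1l-205 overlaps between knockout and control.

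Anxa6 encodes annexin A6, which binds membranes in the presence of calcium, and stood at 1247 to 1346 CPM in naive libraries, at 1321 to 1626 CPM in controls and at 1538 and 1442 CPM in the knockout libraries (knockout against control 0.01, SE 0.09, adjusted p = 0.977, edgeR). Its cassette exon of 18 bases, at chr11:54987051-54987068 on the minus strand, separates Anxa6-202 from Anxa6-201. It was included in 46.6 through a median of 61.8 to 65.5% in controls and in 64.6 and 66.6% in the knockout libraries, which overlap. The log2 odds differed by 0.31 (SE 0.29, adjusted p = 0.772, limma). The sequence of this exon has no AGAA on either strand and is shown as an exon without a match.
Anxa6 18-base exon: gtggctgctgagatcttg

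Homer1 encodes a scaffold protein of receptor complexes. It ran from 1.87 through a median of 3.77 to 5.08 CPM in controls and stood at 2.19 and 6.89 CPM in the knockout libraries, one within and one above the control range (log2 fold change 0.33, SE 0.39, adjusted p = 0.64, edgeR). Its transcript estimates were erratic. The 36-base exon, at chr13:93386345-93386380 on the plus strand, was included at 0% in 6 of 8 controls and at 25.7 and 75.0% in the other two. In the knockout libraries it was included at 0 and 4.95% (adjusted p = 0.965, limma). It holds no AGAA and its sequence follows.
Homer1 36-base exon: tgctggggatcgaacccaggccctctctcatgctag

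Hipk3 encodes a kinase that interacts with homeodomain proteins. It ran from 19.9 through a median of 22.2 to 24.6 CPM in controls and from 20.2 to 29.2 CPM in naive libraries, and stood at 26.7 and 64.4 CPM in the knockout libraries. Both knockout values exceeded every control, knockout 1 by little. Hipk3 rose against control by 1.03 on the log2 scale (SE 0.21, adjusted p = 0.00719, edgeR). Without knockout 2 the difference was 0.27 and did not pass (adjusted p = 0.333), so this call rests on 1 library. Nearly all counts belonged to Hipk3-201 in each group, with 92.1 to 99.9% in controls and 99.8 and 97.8% in the knockout libraries (adjusted p = 0.786, limma). In naive libraries it held 99.3 to 100% and fell in controls against naive (-2.79, SE 0.9, adjusted p = 0.0325, limma), a call that ended without any of 7 libraries (controls 2, 3, 4 and 7 and naive 3, 5 and 7), with adjusted p-values up to 0.0648.

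In transcript shares, 5 of the 60 tested target transcripts were higher and 1 lower in knockout than in control, when 1.26% of the 40088 transcripts tested were called (0.599% higher and 0.661% lower). They were Nasp-204, Nasp-205, Nasp-208, Ktn1-222, Rabgap1l-202 and Rabgap1l-201, described above. Shares within a gene depend on each other, so this count does not stand for that many separate changes. Without either knockout library this count was 1. In exon inclusion, none of the 19 target exons passed by limma, when 1.22% of 11173 exons did (0.340% higher and 0.877% lower). At an unadjusted p under 0.05 there were 3 of 19, and they were the Nasp T exon, the 224-base Chek1 exon and the 82-base Chek1 exon, each with lower inclusion in the knockout. Of all 11173 exons 1234 (11.04%) had such a p, and 6.74% of all had it with lower inclusion. A count of 3 among 19 is too small to be set apart from these shares. In coding share, 2 of 10 targets were called, both lower, when 1.21% of 9004 genes were called (0.344% higher and 0.866% lower). The median log2 odds difference in coding share was -1.19 for the targets and -0.1 for all genes tested. Without knockout 2 no target was called in coding share, where 4 of 10 had an unadjusted p under 0.05 with both libraries, beside 12.4% of all genes.

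AGAA was found in 15 of the 19 tested target exons on the transcript strand. Of internal exons of like length, a median of 57.6% hold at least 1 match (15.1 to 98.1% across the 19 lengths). Of the target exons, 11 held more matches than the median internal exon of similar length among 180027 compared. The share of all internal exons above that median was not counted, so this number has no background beside it. The Ktn1 exons of 110 and 116 bases share their start and are counted separately among the 19. The Fancm exon of 132 bases holds 5 matches, which 2.32% of similar exons reach, and was included at 99.8% in knockout and 99.1% in control libraries (means of 2 and 8). A Chek1 exon of 102 bases holds 4 matches, which 4.05% reach, and was at 100% in every library. The exons without a match were those of Smn1 (113 bases), Anxa6, Homer1 and Hipk3 (63 bases). A match is a description of the sequence and says nothing about binding in these cells.

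Control against naive cells gave 8 targets higher and 1 lower in gene level, when 71.5% of the 17078 genes tested were called (32.5% higher and 39.0% lower). Sgo2a, Chek1 and Nasp had the largest rises, and Hipk3 did not pass (-0.18, SE 0.08, adjusted p = 0.0537, edgeR). Hipk3 passed as lower with total counts only (-0.28, adjusted p = 0.00437) and without naive 1 (adjusted p = 0.0144) or naive 6 (adjusted p = 0.0254). The smallest rises were those of Rabgap1l (0.24, SE 0.05, adjusted p = 0.000683) and Anxa6 (0.2, SE 0.05, adjusted p = 0.000737), whose groups overlapped. After removal of the length and GC trend, Rabgap1l was at 0.9 and Homer1 at 0.99, beside 0.54 without it. That trend used the length of all annotated exons joined, 23232 bases for Rabgap1l and 11976 for Homer1. The median log2 fold change was 0.64 for the targets and -0.08 for all genes. With libraries scaled by total counts only, Anxa6 no longer passed (adjusted p = 0.0526). In transcript shares 3 were higher and 12 lower of 60, when 24.4% of all transcripts were called (7.38% higher and 17.0% lower). Of the 12 that fell, Nasp-204, Nasp-205, Nasp-208, Chek1-204, Rabgap1l-207 and Anxa6-203 are annotated as processed transcripts, and Ktn1-211, Smn1-209 and Fancm-209 as retained introns. The other three were Rabgap1l-205, a decay transcript, and the coding Rabgap1l-202 and Hipk3-201. Those that rose were Rabgap1l-201, Smn1-201 and Hipk3-202, all coding. By diffSpliceDGE 3 of the 60 target transcripts were called. Coding shares of Nasp, Rabgap1l, Smn1 and Anxa6 rose and none fell, when 41.9% of all genes were called (38.0% higher and 3.86% lower). In exon inclusion 3 target exons were called higher, when 9.58% of exons were called (4.05% higher and 5.53% lower). For 2 of the 3, a Chek1 exon of 102 bases and a Fancm exon of 292 bases, inclusion was 100% in every library and the odds differed through the counts alone, so no inclusion changed. That held for 489 of the 1070 calls over all exons.

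Knockout against naive cells gave 7 targets higher and 1 lower in gene level, when 44.7% of 19776 genes were called (21.1% higher and 23.6% lower). Nasp and Rabgap1l (0.2, SE 0.09, adjusted p = 0.0793, edgeR) did not pass. Rabgap1l passed by DESeq2 (adjusted p = 0.0282), after removal of the length and GC trend (0.31, adjusted p = 0.0444) and without naive 5 (adjusted p = 0.0404). Chek1 was higher by 1.79 (SE 0.19, adjusted p = 1.43e-05) and Ktn1 was lower (-1.16, SE 0.11, adjusted p = 5.1e-06). Homer1 was called at 0.88 (SE 0.31, adjusted p = 0.0367), and without knockout 2 its sign turned (-0.13, adjusted p = 0.793). Transcript shares had 4 higher and 3 lower of 60, when 10.2% of transcripts were called (3.21% higher and 7.03% lower). Coding shares had Rabgap1l and Anxa6 higher and Nasp and Chek1 lower, when 18.5% of genes were called (16.5% higher and 1.99% lower). The 2 exons called were again the Chek1 and Fancm exons at 100% inclusion in every library, when 5% of exons were called (1.72% higher and 3.28% lower). Inclusion of Chek1 exon 3 lay below every naive library in both knockout libraries. Its log2 odds differed by -10.31 (SE 3.19, adjusted p = 0.0763, limma), which did not pass. It passed only with a pseudocount of 5 (adjusted p = 0.0248) and without naive 2 (adjusted p = 0.045).

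**Figure D5:**
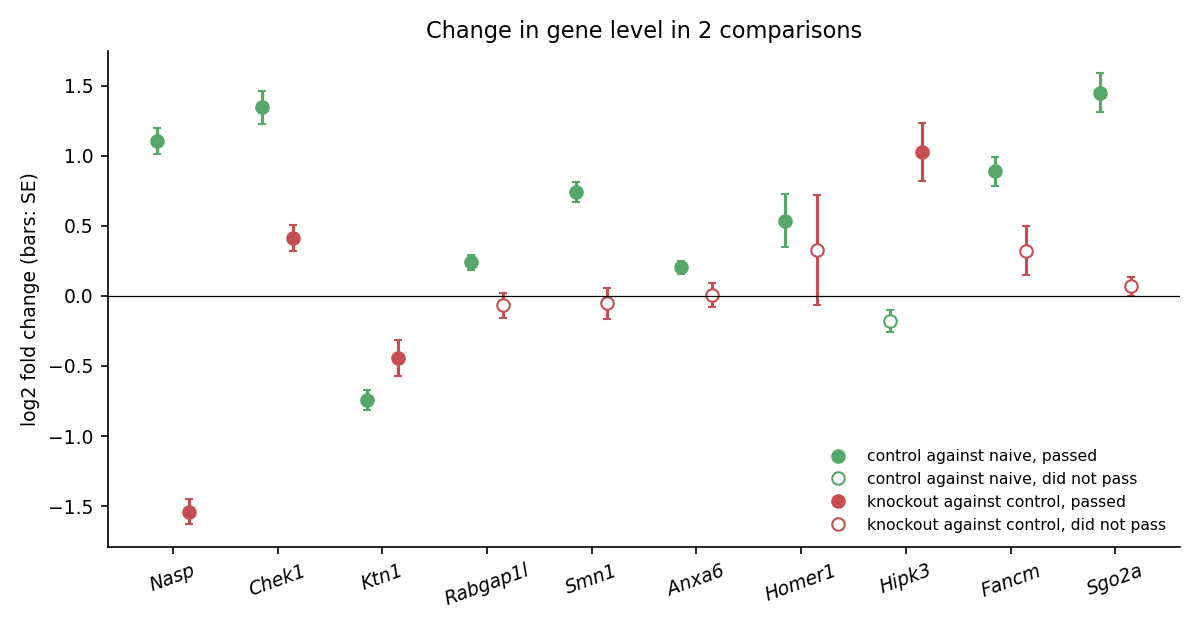
Log2 fold change in gene level (y axis) of the 10 targets for control against naive (green) and knockout against control (red), which share the control libraries; bars are the SE of the fit, and filled points passed an adjusted p of 0.05. Nasp stands at 1.11 and -1.54, and Ktn1 is below 0 in both.

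Divided by transcript length, the order of the levels in controls was Anxa6 with a mean of 603 ± 50.7, Nasp 136 ± 9.6, Smn1 40.3 ± 4.1, Rabgap1l 35.2 ± 2.87, Chek1 20.1 ± 1.88, Sgo2a 18.1 ± 0.788, Ktn1 6.9 ± 0.834, Fancm 4.68 ± 0.521, Hipk3 3.08 ± 0.257 and Homer1 0.991 ± 0.295 CPM per kb (SD, n = 8). The ranges of Smn1 and Rabgap1l overlapped, as did those of Chek1 and Sgo2a. In the knockout libraries Nasp stood at 49.2 ± 3.61 and Chek1 at 33.0 ± 2.89 CPM per kb (SD, n = 2).

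Partners of the targets were counted from lists of genes that act with them, and the genes named are those with the smallest p. Over all genes tested, 7.62% were higher and 7.24% lower in knockout against control (14.9% in all), and 32.5% higher and 39.0% lower in control against naive. Of 15 histone chaperones and histone-binding genes related to Nasp, 0 rose and 3 fell in knockout against control by edgeR (adjusted p under 0.05), and 14 rose and 1 fell in control against naive. Their median log2 fold change in knockout against control was -0.21, beside -0.01 for all genes. Among them Hat1, a histone acetyltransferase, stood at 242 to 303 CPM in controls and at 192 and 160 CPM in the knockout (-0.56, SE 0.09, adjusted p = 0.00285). Of 15 checkpoint genes, 1 rose and 1 fell, a share near that of all genes. The riser was Atr, the kinase above Chek1, at 19.1 to 30.0 CPM in controls and 33.2 and 61.2 CPM in the knockout (0.9, SE 0.18, adjusted p = 0.0071), with knockout 2 above knockout 1. Rad1, of the checkpoint clamp, fell (-0.43, SE 0.09, adjusted p = 0.0077).

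Of 8 genes of the SMN complex, 0 rose and 1 fell, namely Gemin4 (-0.58, SE 0.08, adjusted p = 0.00139). Of 13 Fanconi genes, 0 rose and 4 fell, among them Fancl, the ligase subunit (-0.67, SE 0.1, adjusted p = 0.00165), and Faap100 (-0.63, SE 0.1, adjusted p = 0.00211). Fancl stood at 39.8 to 44.2 CPM in controls and at 29.1 and 22.9 CPM in the knockout. Of 13 genes of centromeric cohesion, 2 rose and 3 fell. Stag2, a cohesin subunit, rose by 1.04 (SE 0.16, adjusted p = 0.00197), with 156 and 302 CPM in the knockout libraries against 97.5 to 128 CPM in controls. Aurkb, the kinase of the chromosomal passenger complex, fell (-0.39, SE 0.07, adjusted p = 0.00298). Of 19 SR proteins, their kinases and other TRA2B partners, 4 rose and 2 fell. Srpk1, a kinase of SR proteins, stood at 150 to 168 CPM in controls and at 73.2 and 75.8 CPM in the knockout (-1.12, SE 0.06, adjusted p = 3.11e-06). Srsf10, an SR protein, rose by 0.48 (SE 0.08, adjusted p = 0.00316), all by edgeR.

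The genes whose level was most like that of Nasp over the 18 libraries, among 7555 well-expressed genes, were Exosc8 (Pearson's r 0.98), Smarcb1 (0.978), Heatr3 (0.969), Naa35 (0.966) and Dlat (0.963). These are descriptions over libraries that share their groups. Heatr3 stood at 58.9 to 72.6 CPM in naive libraries, 93.5 to 129 CPM in controls, and 58.2 and 54.8 CPM in the knockout.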

How the data were processed

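Estimated counts per gene and per transcript were deposited by the authors as whole numbers. The submitters' processing notes list StringTie 2.1.0, the aligner STAR 2.7.1a, SAMtools 1.9, DESeq2 1.30.1 and R 4.0.5, and the builds mm39 and mm10, without saying which step each served. Per the labels, RNA came from a micro column kit and a polyA-based low-input kit. Strand use in counting is not given in the sources used here. All Ensembl identifiers are in GENCODE M21 (GRCm38), the source of coordinates and sequences. Each gene value is the sum of its transcripts, and rows with numeric identifiers (0.0513 to 0.132% of counts) were left out.

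The targets, partner lists and tests were chosen with earlier results of these data known. Gene levels were tested with edgeR 4.0.16 in R 4.3.3 (filterByExpr minimum count 10, TMM, robust quasi-likelihood fit, prior count 2, the 2 groups compared). Transcript shares, exon inclusion (per transcript length) and coding shares were tested with limma 3.58.1 (trend, robust) on log2 odds with a pseudocount of 0.5, with all groups in 1 fit, for transcripts with a mean count of at least 10 and genes or exons of at least 50. P-values were adjusted by Benjamini-Hochberg over all features. Levels shown are CPM with TMM over all 18 libraries. Single values had exact two-sided permutation tests. Shares of overlapping transcripts are estimates and uncertain beyond counting error. Described were all targets and Tra2b, transcripts with a mean share of at least 10% in any group, exons with a mean inclusion of 2 to 98%, up to 2 genes per partner list by smallest p in knockout against control, and the 5 genes most like Nasp (mean log2 CPM 4 or more). Replicate numbers were not used as pairs, since deviations from the group means of equally numbered controls and naive libraries correlated by -0.025 to 0.0321 over 20750 genes. For controls and knockouts the correlations were 0.0104 and 0.0506. With 2 knockout libraries the deviations mirror each other, so these 2 values cannot show or exclude pairs.

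In simulated knockout and control libraries, 37.3% of 1.5-fold, 98.5% of 2-fold and 100% of 4-fold gene changes were called. There were 14 false calls among 17582 genes, which is 8.19% of the calls. For 4-fold changes of a transcript, included forms or non-coding forms, 49.5, 42.1 and 59.0% were recovered. The simulated counts were drawn independently with a fixed spread. They held neither the gap between the 2 knockout libraries nor the error of estimating overlapping transcripts, so these rates need not hold for the real libraries. Alternatives were DESeq2 1.42.0, RLE factors, total counts, no filter, other groupings of libraries, a replicate block, a length and GC trend, another pseudocount, minimum count and scaling by length, edgeR's diffSpliceDGE, and leaving out each library. In the length and GC trend, a gene's length was that of all its annotated exons joined, which can far exceed its main transcript.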

Additional observations from a re-analysis of the deposited data

Results flagged for a closer look

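Among 112 sets of 8 libraries (level, share, inclusion and coding share in naive and in control), 9 had a single library far from the others, and chance flags about 1 in 20 such sets. In the controls, Nasp stood at 320 CPM in control 1, next to 284 CPM, and Tra2b at 338 CPM in control 2, next to 440 CPM. Control 8 had 51.7% of the Anxa6 counts on Anxa6-201, next to 38.2%, with 45.5% on Anxa6-202, next to 59.8%, and 46.6% inclusion of the 18-base exon, next to 60.8%, which are 3 views of the same split. Control 3 had 40.8% of the Homer1 counts on Homer1-203, next to 12.5%, and 75% inclusion of the 36-base exon, next to 25.7%, again the same split. In the naive libraries, inclusion of the Ktn1 exon of 116 bases was 22.1% in naive 8, next to 6.74%, and the coding share of Homer1 was 96% in naive 3, next to 98.2%.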

How the results depend on the processing

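Counts of called targets that moved by more than 1.5 times are given first. Knockout against control had 4 gene levels called, 0 with controls 1 and 2 only and 1 to 4 without a single library. It had 6 transcript shares, 1 by diffSpliceDGE, 2 with only the groups compared and 1 to 6 without a single library. It had 2 coding shares, 1 with only the groups compared and 0 to 2 without a single library. Control against naive had 15 transcript shares, 3 by diffSpliceDGE and 9 with a minimum count 4 times as high. Knockout against naive had 7 transcript shares, 2 by diffSpliceDGE and 1 to 7 without a single library, 2 exons, 1 with only the groups compared and 1 to 3 without a single library, and 4 coding shares, 2 to 4 without a single library. A knockout arm of 1 library was assumed to vary like the other groups. The cause of these moves was not tested.

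With the replicate block, which has 2 pairs, knockout against control had 0 gene levels, 0 transcript shares and 0 coding shares called among the targets, and 0 features called in each measure over all. Knockout against naive had 5 gene levels, 0 transcript shares, 0 exons and 0 coding shares. In that fit Nasp was at -1.6 against control (adjusted p = 0.0994). Same-numbered samples are not shown to be pairs.

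Over all features, knockout against control called 5 gene levels with controls 1 and 2 only, 651 without knockout 2, 200 transcript shares with only the groups compared and 209 by diffSpliceDGE, and 33 coding shares with only the groups compared. Control against naive called 1242 transcript shares by diffSpliceDGE, and 1608 exons with a pseudocount of 5 and 661 with the replicate block. Knockout against naive called 2542 gene levels with the replicate block, 500 transcript shares by diffSpliceDGE, and, without knockout 1 or knockout 2, 1761 or 2126 transcript shares, 346 or 315 exons and 762 or 954 coding shares. Of single targets, transcripts and exons, 931 values kept their side of the threshold under other settings, 44 lost it, 23 gained it and 0 reversed. Without a single library, 1947 kept it, 45 lost it, 23 gained it and 1 reversed, Homer1 in knockout against naive without knockout 2 (-0.132). A change of sign was counted as reversed only where a fit passed, and otherwise as kept. Without a single library, the gene level in knockout against control ran from -0.7 to 0.92 for Homer1 and from -0.17 to 0.68 for Fancm.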
